A study of Solanum lycopersicum with 9 samples.

Results

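In the tomato RNA-Seq table, 79 of 33989 gene models (0.232%) were expressed at 20 FPKM or more in control CK1 and at under 1 FPKM in both control CK2 and WRKY-B-GFP. FPKM, the fragments per kilobase of transcript scaled to the mapped fragments of a library, is a level corrected for gene length and depth, and the limits apply to the mean of the 3 libraries of each group. Because these means chose the gene models, the gap between control CK1 and the other groups is a description and carries no test. The 79 comprised 64 gene models whose ID has 1 suffix, 12 whose ID has 2 suffixes, and 3 that the authors' pipeline added to the annotation. The first 2 kinds lie at 76 different loci, a locus being the ID without its suffixes.

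The 9 libraries fall into 3 groups of 3. The labels give control CK1 as cultivar monomaker and control CK2 as cultivar Compound raceme, with bud as the tissue of both, and give the libraries OE1, OE30 and OE9 as Compound raceme with flower as the tissue. The study's text instead describes axillary buds of the cultivar Ailsa Craig from wild-type plants and from WRKY-B-GFP plants, which carry WRKY-B fused to GFP under a constitutive promoter, with several plants pooled per replicate and 6 libraries in all. The OE libraries are taken here as WRKY-B-GFP. Whether their numbers name transgenic lines is not stated. The labels name no age, agent or transgene. By the labels, control CK1 differs from control CK2 in cultivar and from WRKY-B-GFP in cultivar and tissue, beside the transgene, and these cannot be told apart. The study's text calls the replicates biological, but it describes 1 control set where the table holds 2 and does not say which. For Solyc01g006320.3, Solyc01g006450.3 and Solyc01g028860.3, the fold changes in its supplement are those of WRKY-B-GFP over control CK2, not over control CK1. The study's control set is therefore taken as control CK2. For control CK1, which the study does not describe, the errors measure the spread between libraries, which may be technical.

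WRKY-B is a member of the WRKY transcription factors, a plant family whose proteins bind DNA and switch target genes on or off. An axillary bud forms where a leaf joins the stem and can grow out into a branch. It holds a meristem, young leaves and vascular tissue, while a flower bud holds sepals, petals, stamens and a pistil. Many plant genes are active in one organ or at one stage alone, and cultivars can also differ in which copy of a gene is present or active. In RNA from whole organs, fewer cells of a type and less RNA per cell cannot be told apart. The tables used here pair none of the 79 IDs with a name or function, so the gene models are given by ID, and tissue markers could not be checked.

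WRKY-B itself (Solyc02g071130.3) checks whether the OE libraries can be taken as WRKY-B-GFP. It does not check the cultivar or tissue that the labels give. WRKY-B was at 0.87, 0.71 and 0.55 FPKM in control CK1, at 0.40, 0.40 and 0.08 FPKM in control CK2, and at 74.0, 93.5 and 205.7 FPKM in OE1, OE30 and OE9. The 3 WRKY-B-GFP libraries stood above all 6 control libraries. Read totals are unknown, since the file gives FPKM without counts. The most frequent ratio of low values to the first control CK1 library was 1.00 in the other 5 control libraries. It was 1.04 in OE1 and OE30 and 1.06 in OE9. Only values close to the lowest of a gene model were compared. That choice held the ratios near 1, so they do not show how depth compares between libraries. The FPKM of a library summed to 615715 to 769380.

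The strongest of the 79 were among the most abundant transcripts of control CK1. Solyc01g009590.3 was at 2273, 2238 and 2203 FPKM in the 3 control CK1 libraries, at 0.29, 0.71 and 0.28 FPKM in control CK2 and at 0 in the 3 WRKY-B-GFP libraries. Solyc01g086830.3 was at 1976, 1953 and 1891 FPKM in control CK1, at 0.50, 0.59 and 0.20 FPKM in control CK2 and at 0 in WRKY-B-GFP. They ranked 22 and 30 among all gene models of control CK1, and in neither did a library of another group reach 1 FPKM. Solyc11g018570.1 was at 1350, 1309 and 1281 FPKM in control CK1 and was listed at 0 in all 6 other libraries. Solyc02g080760.1 was at 1258, 1252 and 1223 FPKM in control CK1, with a single value above 0 elsewhere, 0.18 FPKM in the second control CK2 library. Solyc07g053780.3 was at 1079, 1011 and 1011 FPKM in control CK1, at 0.24, 0 and 0.35 FPKM in control CK2 and at 0 in WRKY-B-GFP. These 5 were the gene models at 1000 FPKM or more, and together they made up 46.0% of the summed FPKM of the 79 in control CK1.

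The next 5 ran from 884 down to 480 FPKM. Solyc07g053460.3 averaged 884 ± 37.2 FPKM (SD, n = 3) in control CK1, was at 0.17, 0.06 and 0.06 FPKM in control CK2 and was at 0 in WRKY-B-GFP. Solyc05g050700.1 averaged 735 ± 21.0 FPKM (SD, n = 3) in control CK1, was at 0.31, 0.60 and 0.44 FPKM in control CK2, and was at 1.14, 0.37 and 1.06 FPKM in OE1, OE30 and OE9. It alone of the 10 strongest kept a value above 0 in every library of the other groups. Solyc01g099540.2 averaged 646 ± 25.0 FPKM and Solyc01g099530.3.1 averaged 547 ± 16.0 FPKM in control CK1 (SD, n = 3), and both were at 0 in all 6 other libraries. Solyc03g053130.3 was at 477, 481 and 482 FPKM in control CK1, at 0.83, 0.63 and 0.68 FPKM in control CK2 and at 0.05, 0 and 0 FPKM in WRKY-B-GFP. The 10 strongest carried 65.5% of the summed FPKM of the 79.

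**Figure D1:**
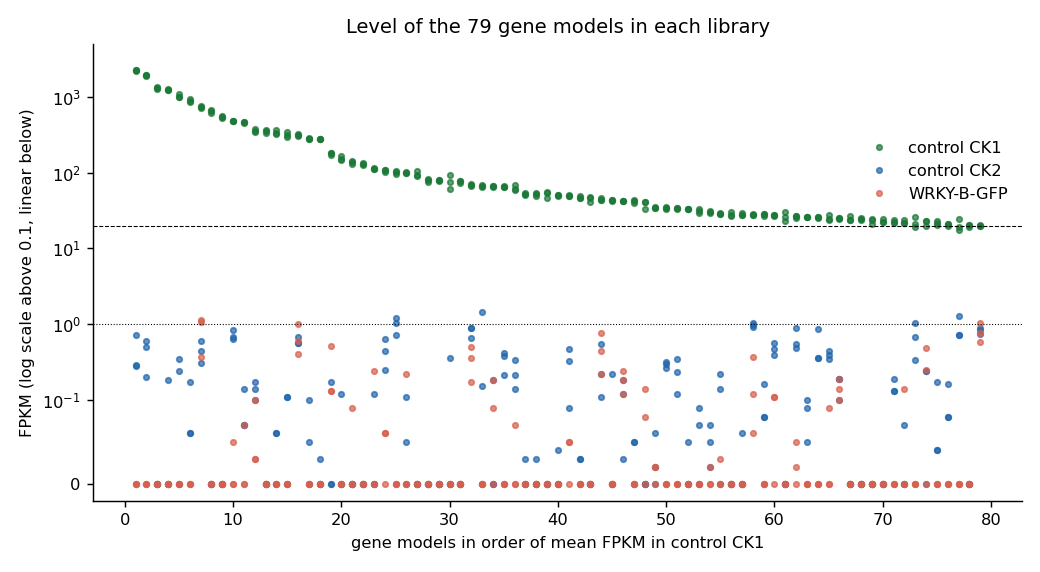
FPKM of the 79 gene models in each of the 9 libraries, ordered along the x axis by mean FPKM in control CK1, with 1 point per library and a y axis that is logarithmic above 0.1 FPKM and linear below. The dashed line is 20 FPKM and the dotted line 1 FPKM. Control CK1 points fall from 2273 to about 20 FPKM, and the points of the other groups lie at 0 or near 1 FPKM and below.

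Below these, the level fell off quickly. The mean in control CK1 had a median of 50.4 FPKM over the 79, with quartiles of 27.5 and 146 FPKM. Of the 79, 5 were at 1000 FPKM or more, 21 at 100 to 1000 FPKM and 53 at 20 to 100 FPKM, of which 39 were under 50 FPKM. There were 6 among the 100 most abundant gene models of control CK1 and 22 among the top 1000. The summed FPKM of the 79 was 17174, 16826 and 16674 in the 3 control CK1 libraries, which is 2.26%, 2.23% and 2.22% of all FPKM. The same sum was 14.8, 16.2 and 14.1 FPKM in control CK2 and 5.66, 3.42 and 5.54 FPKM in OE1, OE30 and OE9.

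The 3 control CK1 libraries gave nearly the same values. The coefficient of variation, the SD as a percentage of the mean, had a median of 3.28% over the 79 gene models and ranged from 0.179% to 20.2%, against a median of 3.28% for all gene models that reached 20 FPKM in control CK1. The widest spread was that of Solyc06g035820.1, at 92.32, 75.38 and 61.53 FPKM. Its highest control CK1 library was 1.5 times its lowest, and none of the 79 differed by more than 2-fold between control CK1 libraries. Of the 79, 76, 75 and 79 were at 20 FPKM or more in the control CK1 libraries, in the order of their numbers.

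The rule picks a small fraction of the genes that are strong in control CK1, 79 of 6203 gene models at 20 FPKM or more there (1.27%). Of these 6203, 91 were under 1 FPKM in control CK2, and 12 of the 91 were at 1 FPKM or more in WRKY-B-GFP, at a median of 7.02 FPKM and a highest of 53.0 FPKM. Of the same 6203, 153 were under 1 FPKM in WRKY-B-GFP, and 74 of the 153 were at 1 FPKM or more in control CK2, at a median of 18.5 FPKM. The 79 are thus 86.8% of the first list and 51.6% of the second. The lists share the control CK1 libraries, and the rule fixes these counts. The same limits turned around selected 342 gene models strong in control CK2 alone, 5.53% of the 6181 at 20 FPKM or more there, and 11 strong in WRKY-B-GFP alone, 0.173% of 6363. The 342 gene models held 7.30% to 7.64% of the FPKM of the control CK2 libraries, and the 11 held 0.0939% to 0.155% of that of WRKY-B-GFP.

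**Figure D2:**
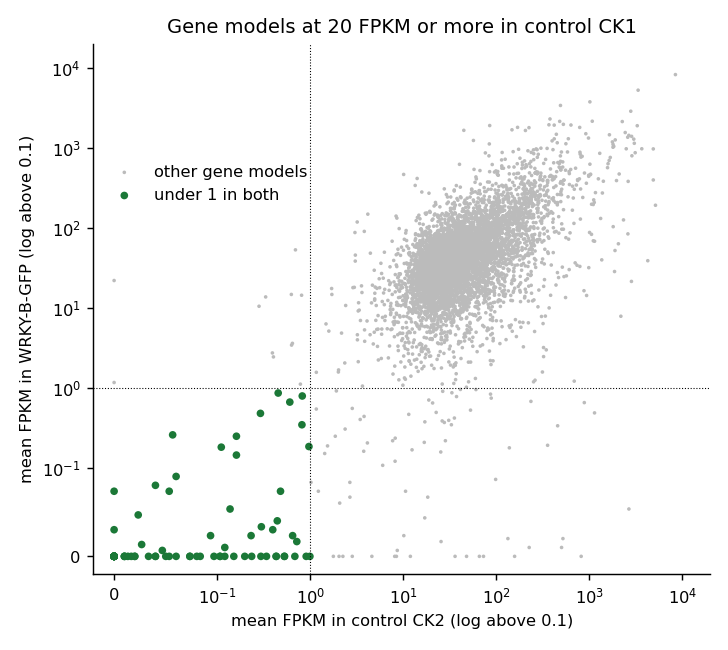
Mean FPKM in control CK2 (x axis) and in WRKY-B-GFP (y axis) of the 6203 gene models at 20 FPKM or more in control CK1, 1 point per gene model, on axes that are logarithmic above 0.1 FPKM and linear below. Dotted lines mark 1 FPKM. The 79 gene models under 1 FPKM in both groups, in green, form a small corner away from the main cloud.

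The gene models nearest to the limits of the rule differed little across them. Closest inside the control CK1 limit were Solyc04g015430.3.1 at 20.02 FPKM and Solyc01g090110.2 at 20.17 FPKM. Closest outside it were Solyc08g079910.2 at 19.6 FPKM and Solyc05g050695.1 at 19.5 FPKM. On the control CK2 limit, Solyc08g060930.3 at 0.987 FPKM and Solyc06g062540.3 at 0.963 FPKM were inside, while Solyc01g095780.2 at 1.01 FPKM and Solyc03g006650.2 at 1.16 FPKM were outside. Solyc01g095780.2 averaged 764 FPKM in control CK1 and would otherwise have been the 7th strongest. On the WRKY-B-GFP limit, Solyc05g050700.1 at 0.857 FPKM and Solyc04g015430.3.1 at 0.787 FPKM were inside, while Solyc04g008780.3.1 at 1.11 FPKM and Solyc06g009290.3 at 1.16 FPKM were outside.

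Choosing the gene models from 8 libraries and reading them in the library left out gave 77 to 80 gene models. In the left-out library, 93.7% to 100% of those chosen met the limit. With a control CK1 library left out, the lowest value in it was 13.4 FPKM. With a control CK2 library left out, the highest value in it was 1.46 FPKM. With OE1 left out, 1 of the 80 gene models chosen, Solyc01g068040.1, was at 40.7 FPKM in OE1, the farthest departure in any left-out library.

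What remained outside control CK1 was not spread evenly over the other groups. Of the 79, 18 were at 0 in all 6 other libraries, among them Solyc11g018570.1, Solyc01g099540.2, Solyc01g099530.3.1 and Solyc03g031610.1, the last at 350 ± 16.7 FPKM in control CK1 (SD, n = 3). In all, 51 were at 0 in the 3 WRKY-B-GFP libraries and 20 at 0 in the 3 control CK2 libraries. Only 2 were at 0 in control CK2 but not in WRKY-B-GFP, Solyc07g056300.1 and Solyc04g008780.3, whose highest WRKY-B-GFP values were 0.09 and 0.14 FPKM. By library, 35, 32 and 33 of the 79 were at 0 in control CK2, and 59, 62 and 60 in OE1, OE30 and OE9. There were 9 gene models with a value above 0 in every library, among them Solyc05g050700.1, Solyc02g088710.3 and Solyc08g062780.2.1.

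Of the 61 gene models above 0 in at least 1 of these groups, 49 (80.3%) had the higher mean in control CK2 and 12 (19.7%) in WRKY-B-GFP. For 24 of the 61 (39.3%), every control CK2 library lay above every WRKY-B-GFP library, and for 0 the reverse held. Among 8958 other gene models under 1 FPKM in both groups, and above 0 in at least 1, 49.7% had the higher mean in control CK2 and 48.4% in WRKY-B-GFP, and in 13.6% every control CK2 library lay above every WRKY-B-GFP library. Where such gene models were at 1 to 20 FPKM in control CK1, 895 in number, the shares were 59.8% higher in control CK2 and 22.7% with every control CK2 library above every WRKY-B-GFP library. How many reads lie behind these low values is not known.

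In 7 gene models at least 1 library outside control CK1 reached 1 FPKM. Solyc11g066430.1 was at 0.15, 1.43 and 0 FPKM in control CK2 and at 0 in WRKY-B-GFP, so its control CK2 level rested on 1 library. Solyc06g069260.1 was at 0.72, 1.26 and 0.72 FPKM in control CK2 and at 0 in WRKY-B-GFP. Solyc12g008440.1 was at 0.34, 0.68 and 1.02 FPKM in control CK2 and at 0 in WRKY-B-GFP. The others were Solyc08g060930.3, Solyc06g062540.3, Solyc05g050700.1 and Solyc04g015430.3.1, the last at 0.58, 0.76 and 1.02 FPKM in WRKY-B-GFP and at 0.88, 0.83 and 0.74 FPKM in control CK2. Its groups overlapped.

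The difference between WRKY-B-GFP and control CK2 was not used by the rule, and limma tested it over the 24905 gene models that reached 0.5 FPKM in 3 or more of the 6 libraries. Calls needed at least a 2-fold change together with a Benjamini-Hochberg adjusted p under 0.05. Only 8 of the 79 were high enough to be tested, and 5 of the 8 were called lower in WRKY-B-GFP and 0 higher, where 23.2% of all gene models tested were called lower and 25.8% higher. Of the 5, all but Solyc03g046200.1 reached the filter through the 3 control CK2 libraries alone. Solyc03g046200.1 reached it through these 3 libraries and OE1, where it was at 0.50 FPKM. For Solyc03g046200.1 too, the 3 control CK2 libraries alone would have sufficed. With both groups held under 1 FPKM by the rule, a difference in this direction was favoured for all 5. The 5 are therefore given by their values, with no p, and the count says nothing of the 79 as a set.

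In 3 of the 5, WRKY-B-GFP was at or near 0. Solyc08g060930.3 was at 0.72, 1.22 and 1.02 FPKM in control CK2 and at 0 in all 3 WRKY-B-GFP libraries. Solyc06g069260.1 and Solyc03g053130.3, whose values are given above, had the same order of groups. The size of such a difference is set by the pseudocount, the constant added before the logarithm. For Solyc08g060930.3 the log2 difference was -3.41 with a pseudocount of 0.1, -6.61 with 0.01 and -0.98 with 1. For Solyc06g069260.1 it was -3.28, -6.46 and -0.91, and for Solyc03g053130.3 it was -2.82, -5.31 and -0.75, in the same order. With a pseudocount of 1, or without any 1 of the control CK2 libraries, 0 of the 79 were called.

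The other 2 of the 5 kept a low level in WRKY-B-GFP. Solyc06g062540.3 was at 0.91, 0.96 and 1.02 FPKM in control CK2 and at 0.37, 0.12 and 0.06 FPKM in WRKY-B-GFP. Solyc03g046200.1 was at 0.89, 0.66 and 0.88 FPKM in control CK2 and at 0.50, 0.17 and 0.36 FPKM in WRKY-B-GFP. The groups did not overlap in either, and the call of Solyc03g046200.1 was lost without OE30 and without OE9. The 3 gene models tested and not called were Solyc05g050700.1, with a log2 difference of 0.71 (adjusted p by limma 0.201), Solyc02g078330.3.1, with 0.05 (adjusted p by limma 0.903), and Solyc04g015430.3.1, with -0.08 (adjusted p by limma 0.806). Solyc05g050700.1 was at 0.37 FPKM in OE30 and at 1.14 and 1.06 FPKM in OE1 and OE9. Without OE30 it passed as higher in WRKY-B-GFP, with a log2 difference of 1.16. It then reached the filter only through OE1, OE9 and the second control CK2 library, so no p is given.

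**Figure D3:**
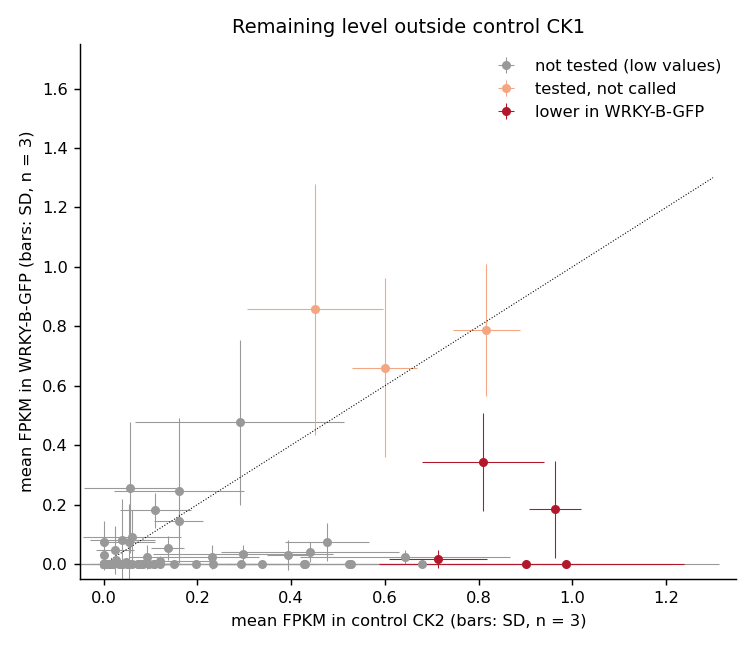
Mean FPKM of the 79 gene models in control CK2 (x axis) and in WRKY-B-GFP (y axis), with bars of 1 SD over 3 libraries and a dotted line where both are equal. The 5 gene models called lower in WRKY-B-GFP by limma are dark red, and in each of them the 3 control CK2 libraries sufficed to reach the filter. The 3 tested and not called are light, and those too low to be tested are grey. Most points lie under the line, along the x axis.

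A locus can have a second gene model in the table, which the rule did not use. Of the 76 loci, 14 had 2 gene models, and both met the rule at 0 of them. The other gene model was at 1 FPKM or more in control CK2 or WRKY-B-GFP at 6 of the 14. The same count for gene models at 20 FPKM or more in control CK1 that were not among the 79, at loci with 2 gene models, was 919 of 1540 (59.7%). The summed FPKM of the locus still met the rule at 8 of the 14. How the authors' counting split reads between 2 gene models of a locus is not known, and its part in these values was not tested.

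At Solyc02g078380 the 2 gene models exchanged places. Solyc02g078380.3.1 was at 59.52, 61.13 and 68.58 FPKM in control CK1, at 0.14, 0.34 and 0.21 FPKM in control CK2 and at 0, 0 and 0.07 FPKM in OE1, OE30 and OE9. Solyc02g078380.3 was at 0, 0.10 and 0 FPKM in control CK1, at 31.55, 31.68 and 33.83 FPKM in control CK2 and at 68.72, 102.22 and 58.62 FPKM in OE1, OE30 and OE9. The locus as a whole was therefore expressed in every group, with 1 gene model in control CK1 and the other in the remaining libraries. The file places Solyc02g078380.3.1 at chromosome 2, 43651254 to 43653626, on the minus strand of build SL3.0. Of the 6513 loci with 2 gene models, this was the only one where 1 gene model was at 20 FPKM or more in control CK1 and under 1 FPKM in control CK2 and the other the reverse. It was also the only one between control CK1 and WRKY-B-GFP, and 0 such loci were found between control CK2 and WRKY-B-GFP.

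At the other 5 of the 6 loci the second gene model was present in several groups. Solyc06g072780.2.1 was at 26.4 FPKM in control CK1, 2.39 FPKM in control CK2 and 10.7 FPKM in WRKY-B-GFP, beside Solyc06g072780.2, which was at 0 outside control CK1. Solyc03g026090.3.1 was at 12.8, 2.00 and 12.4 FPKM in the same order, beside Solyc03g026090.3 at 79.4 FPKM in control CK1 and 0 elsewhere. Solyc04g008780.3.1 was at 126, 0.78 and 1.11 FPKM and missed the rule by its WRKY-B-GFP level, so both gene models of this locus were strong in control CK1. Solyc02g078330.3 was at 0.207, 1.37 and 1.57 FPKM, low throughout, beside Solyc02g078330.3.1 at 315 FPKM in control CK1. Solyc01g099530.3 was at 1.04, 0.533 and 1.09 FPKM, beside Solyc01g099530.3.1 at 547 FPKM in control CK1.

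**Figure D4:**
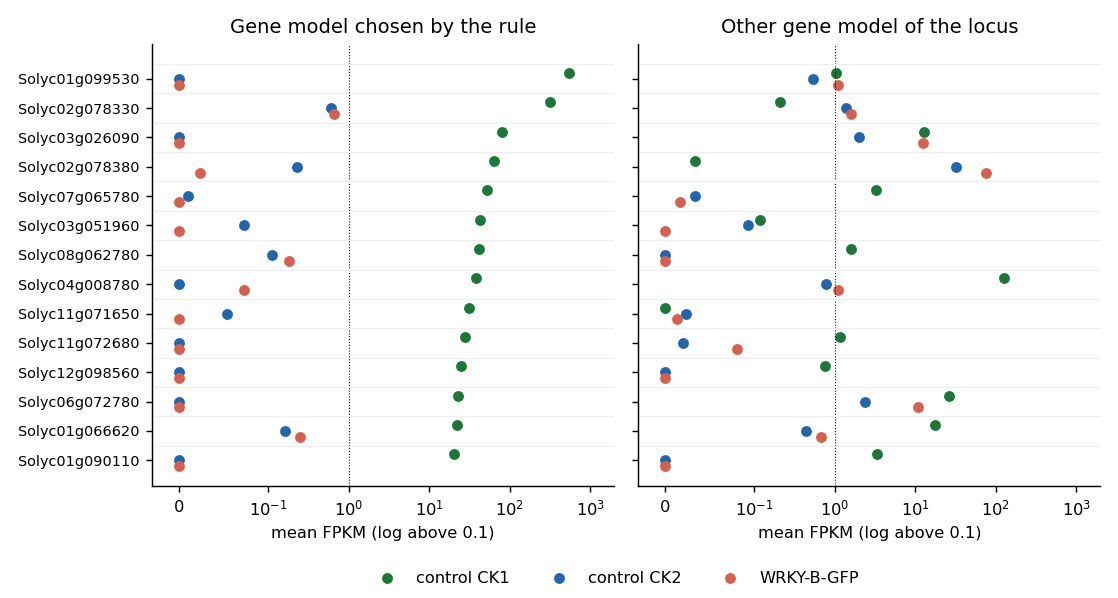
Mean FPKM in each group of the gene model chosen by the rule (left) and of the other gene model of the same locus (right), for the 14 loci with 2 gene models, on an x axis that is logarithmic above 0.1 FPKM. Dotted lines mark 1 FPKM. On the right, Solyc02g078380 has its control CK1 point near 0 and the other groups at 32.4 and 76.5 FPKM, the reverse of the left.

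Tomato IDs number the loci along each chromosome, so ID order serves as position where the file gives no coordinates. The 79 were on all 12 chromosomes, with 14 on chromosome 1, 11 on chromosome 7, 10 on chromosome 3, 8 on chromosome 11 and 2 on unplaced sequence. They made up 2.41% of the gene models at 20 FPKM or more in control CK1 on chromosome 7 and 2.03% on chromosome 11, against 1.27% over all. The lowest share was 0.709% on chromosome 10, and the highest was 6.67% on unplaced sequence, 2 of only 30. The file gives SL3.0 positions for 15 of the 79, which span 859 to 38810 bases. The longest was Solyc02g080710.2.1, at chromosome 2, 45420415 to 45459224, on the plus strand. The 3 added gene models lie at chromosome 3, 3552192 to 3553154 (113 FPKM in control CK1), on unplaced sequence at 16780723 to 16781677 (51.5 FPKM) and at chromosome 12, 64677177 to 64678035 (27.6 FPKM). The one on chromosome 3 begins 6110 bases past Solyc03g026090.3.1, whose locus holds another of the 79.

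Several of the loci lay side by side in ID order. This order holds only the 27028 loci with values, so any annotated locus without values is passed over. Of the 76, 8 (10.5%) were next in ID order to another of the 76, against 39 of 6189 (0.630%) other loci at 20 FPKM or more in control CK1 that were next to one of the 76. Within 5 loci on each side the counts were 12 (15.8%) and 175 (2.83%). Neighbouring genes can be copies of one another with shared reads, so these loci need not be independent, and whether they are copies was not tested.

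The adjacent pairs were of unlike strength. Solyc01g099530.3.1, at chromosome 1, 89625476 to 89632125 on the minus strand, and Solyc01g099540.2 were at 547 and 646 FPKM in control CK1 and at 0 elsewhere. The loci on their outer sides, Solyc01g099520 and Solyc01g099560, were at 20.2 and 1.34 FPKM in control CK1 and at 43.7 and 1.68 FPKM in control CK2. Solyc02g080710.2.1 and Solyc02g080760.1, next to each other in the table, were at 320 and 1245 FPKM in control CK1. Solyc07g056290.2 and Solyc07g056300.1 were at 25.3 and 137 FPKM, between loci at 3.54 and 3.62 FPKM. Solyc11g072670.1 and Solyc11g072680.1.1 were at 44.2 and 28.1 FPKM, between loci at 5.45 and 30.6 FPKM. The outer loci of these pairs were at 1 FPKM or more in control CK2 too, apart from Solyc02g080680, which was at 0, 0.03 and 0 FPKM in control CK1, control CK2 and WRKY-B-GFP.

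Another 2 pairs lay a few loci apart. Solyc11g018570.1 and Solyc11g018600.1 were at 1313 and 66.1 FPKM in control CK1. Between them, Solyc11g018580 was at 26.8, 20.5 and 21.6 FPKM in control CK1, control CK2 and WRKY-B-GFP and Solyc11g018590 at 0.80, 5.41 and 0.12 FPKM, so the stretch as a whole was not silent outside control CK1. Solyc02g078330.3.1 and Solyc02g078380.3.1 lie 23129 bases apart on the minus strand of chromosome 2. The loci between them, Solyc02g078340 to Solyc02g078370, differed widely from one another.

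In this stretch of chromosome 2, Solyc02g078360.3 was at 44.5 ± 1.38 FPKM in control CK1, 29.4 ± 2.22 FPKM in control CK2 and 50.4 ± 5.21 FPKM in WRKY-B-GFP (SD, n = 3 each). Next to it, Solyc02g078370.1 was at 5523, 5835 and 5425 FPKM in control CK1, at 9.59, 10.7 and 10.0 FPKM in control CK2 and at 0, 0.07 and 0 FPKM in OE1, OE30 and OE9. It was the gene model with the second highest level in control CK1, and only its control CK2 level kept it out of the 79. It was singled out after its values were seen. Solyc02g078340.3, at 0 in control CK1, was at 0.17, 0.34 and 0.34 FPKM in control CK2, and Solyc02g078350.3 was at 2.57, 0.99 and 3.08 FPKM in control CK1, control CK2 and WRKY-B-GFP. Loci with the control CK1 pattern and loci without it thus lay next to each other in the stretch.

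**Figure D5:**
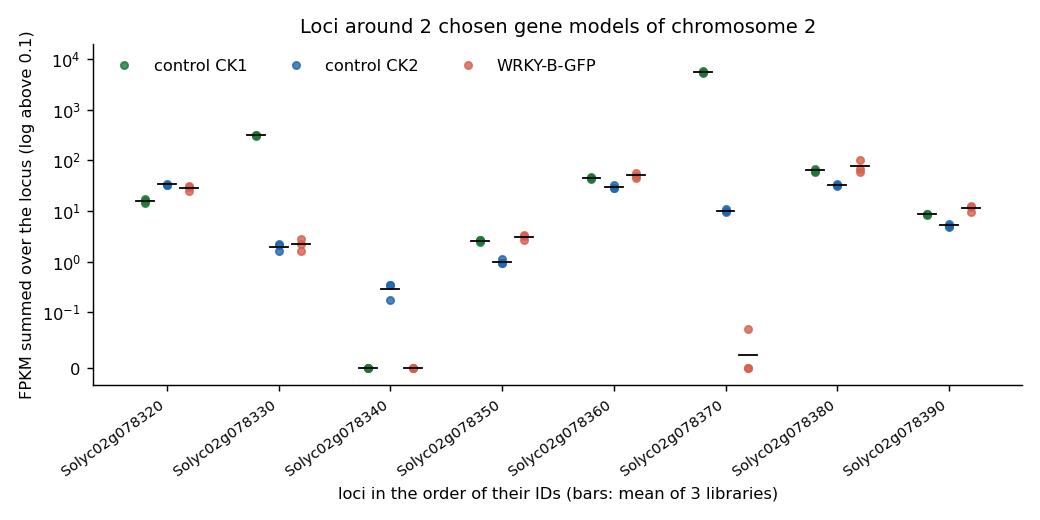
FPKM summed over each locus from Solyc02g078320 to Solyc02g078390, in ID order, with 1 point per library, a black bar for the mean of 3 libraries, and a y axis that is logarithmic above 0.1 FPKM. Solyc02g078330 and Solyc02g078370 stand far higher in control CK1 than in the other groups, Solyc02g078360 is at 44.5, 29.4 and 50.4 FPKM in control CK1, control CK2 and WRKY-B-GFP, and Solyc02g078380 is expressed in every group once its 2 gene models are summed.

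Most loci adjacent to the 76 were expressed in each group. Of 144 adjacent loci, 76.4% were at 1 FPKM or more in control CK1, 72.9% in control CK2 and 64.6% in WRKY-B-GFP. In the background the shares were 75.6%, 75.6% and 71.1%. This background is the 10799 loci adjacent to other loci at 20 FPKM or more in control CK1, not all loci. In the fit of control CK1 against control CK2, 33 of 141 adjacent gene models (23.4%) were called higher in control CK1, where 14.0% of all gene models tested were. In the fit against WRKY-B-GFP, 43 of 135 (31.9%) were called higher in control CK1, where 21.8% of all were. Both fits share the control CK1 libraries. Gene models called higher in both numbered 23 of 133 (17.3%) beside the 76 and 1858 of 23553 (7.89%) over all, and the 23 lay at 21 loci next to 19 of the 79. These counts are a description, since the 79 were chosen on the same libraries. The 79 were called in both fits by construction.

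Some of these neighbours had the same pattern at a level under the limit of the rule, and they were singled out after their values were seen. Of the 23, 17 were under 1 FPKM in both other groups, and 6 were under 0.1 FPKM in both. The 17 include weak cases. Solyc06g071690.3 was at 2.16, 0.563 and 0.523 FPKM in control CK1, control CK2 and WRKY-B-GFP, and Solyc04g076640.2.1 was at 0.797, 0.19 and 0 FPKM. The same shares among all gene models called higher in both fits are not given. Solyc01g110220.1 and Solyc01g110240.1, at 14.8 ± 1.27 and 13.4 ± 1.70 FPKM in control CK1 (SD, n = 3), lie on the 2 sides of Solyc01g110230.1, at 24.5 ± 0.62 FPKM, and all 3 were at 0 in the other 6 libraries. Solyc05g050695.1, at 23.89, 21.14 and 13.39 FPKM in control CK1 and 0 elsewhere, is next to Solyc05g050700.1. Solyc03g046570.3, at 18.9 FPKM in control CK1, is next to Solyc03g046580.1, at 462 FPKM. Other neighbours were shared more widely. Solyc01g086820.3, next to Solyc01g086830.3, was at 403, 107 and 14.5 FPKM in control CK1, control CK2 and WRKY-B-GFP.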

How the data were processed

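RNA-Seq of 9 tomato libraries was deposited by the authors as FPKM per gene model, rounded to 2 decimals. The tools in the submitters' processing notes are DESeq2 1.4.5, RSEM 1.2.12, Bowtie2 2.2.5 and HISAT2 2.0.4, with no role given. Positions of 8423 gene models are on SL3.0. The deposited columns of log2 ratios, p-values and q-values of the authors' comparisons were not used, and 0 per-sample columns were left out. None of 41476 RefSeq genes (SLM_r2.1) matched an ID, so the lists of annotation classes and tissue markers were not filled and no sequence is shown.

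Groups followed the library titles, with OE1, OE30 and OE9 taken as WRKY-B-GFP. The gene models were chosen by mean FPKM (20 or more, and under 1). limma 3.58.1 (limma-trend, R 4.3.3) was fitted on log2(FPKM + 0.1) with the 6 libraries of 2 groups, over those that reached 0.5 FPKM in 3 or more, and was tested on simulated data. A fold change on this scale understates that of low genes. Other steps used Python 3.11.15, numpy 2.4.6, pandas 2.3.3 and matplotlib 3.10.9. Without read totals, the spread of 3 libraries is the measure of precision.

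Named are the 10 gene models strongest in control CK1, the 2 on each side of each limit, those with a second gene model at 1 FPKM or more outside control CK1, those with 1 FPKM or more in any other library, those next to each other, those called in the comparison of WRKY-B-GFP to control CK2, and those over 2-fold apart between control CK1 libraries. Gene models named beyond this rule were singled out after their values were seen. The rule, members and lists were chosen with earlier results of these data known.

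Alternatives were other limits, medians, sums per locus, median-ratio scaling, pseudocounts of 1 and 0.01, no filter, all 9 libraries in 1 fit, each library left out in turn and a replicate block.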

Additional observations from a re-analysis of the deposited data

How the results depend on the processing

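The number of gene models was 79, and it was 144 at 10 FPKM or more in control CK1 and 40 at 50 FPKM or more. Other limits, medians, scaling and sums per locus gave 67 to 91, and leaving out 1 library gave 77 to 80. The count of the 79 that differed between control CK2 and WRKY-B-GFP, 5, was 0 with a pseudocount of 1, 21 of 61 tested with no filter and 22 of 79 with all 9 libraries in 1 fit, and ranged from 0 to 5 with 1 library left out. It was 0 without any 1 of the control CK2 libraries, where 3 or 4 of the 79 were left to test. With a pseudocount of 0.01 it was 5, and with median-ratio scaling it was 6 of 9 tested. In the fit of all 9 libraries, the 79 passed the filter through control CK1, where the rule made them high. The share called over all gene models is not given for these other settings, so the counts say nothing of the 79 as a set. Calls over all gene models between control CK1 and control CK2, 6826, ranged from 5053 to 7637 in other settings and from 5537 to 5844 with 1 library left out. Those between control CK1 and WRKY-B-GFP, 9595, ranged from 7632 to 10506 and from 7427 to 9615. With 1 library left out the filter still needed 3 libraries, so gene models on only in the cut group were no longer tested. Without a control CK1 library, 17 of the 79 were tested against control CK2 and 6 against WRKY-B-GFP. The counts with 1 library left out therefore do not measure the stability of the calls alone. Median-ratio scaling changed the split of the first from 3543 higher and 3283 lower in control CK1 to 2646 and 3871, and that of the second from 5323 and 4272 to 5793 and 3666. Same-numbered control libraries did not deviate together (r of -0.0528, -0.0395 and -0.0118 across 16785 gene models), and with the replicate number as a block 6822 were called. No paired analysis was possible for WRKY-B-GFP because its libraries share only the number 1 with the controls. Second gene models at 0.5 FPKM or more outside control CK1 numbered 7 in place of 6. Depth is unknown, so how many reads lie behind levels under 1 FPKM is not known.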
